A study of Mus musculus with 8 samples.

Results

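The haemoglobin genes of the mouse and a pair of other red cell genes were examined in RNA from the outflow tract (OFT) of the embryonic heart. The 9 genes were chosen by name from a table of 14608 genes: the embryonic globins Hbb-y, Hbb-bh1 and Hba-x, the adult globins Hbb-bs, Hbb-bt, Hba-a1 and Hba-a2, and the erythroid genes Alas2 and Slc4a1. All 9 reached 1 CPM (reads of a gene scaled to a common library total, here with TMM factors) in all 8 libraries. Of 16 globin gene names looked up, pseudogenes among them, 7 were in the table. In these embryos 7 globins together made up between 0.151% and 0.56% of the CPM of a library, and their levels rose and fell together from pool to pool. The difference between genotypes was smaller than its standard error for 9 of 9 genes.

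The tissue was OFT at embryonic day 11.5, the vessel that carries blood out of the heart and is divided and supplied with valves at about this age. Control embryos were compared with Mib1V943F/+ Gata6STOP/+ embryos (called mutant here), which carry a missense allele of Mib1 and a null allele of Gata6 that ends in an early stop codon, each beside a wild-type copy. Mib1 encodes a ubiquitin ligase needed by cells that send Notch signals, and Gata6 a cardiac transcription factor. Each genotype had 4 libraries of polyA RNA, each made from a pool that held tissue of 3 individuals according to the labels, whereas the methods of the study give another arrangement of pools. The labels do not say how the control embryos were bred or whether OFT was rinsed of blood. P-values therefore measure the spread between these pools only. Mutant pool 2 stood apart from the other mutant pools over all genes. Chi-square per gene between the reads of a pair of pools was 30.8 to 33.7 in the 3 pairs with it, 9.38 to 12.4 in the other mutant pairs and 6.67 to 18.5 in the control pairs. The SD of the log2 difference of a pair over 11651 genes, computed after seeing the values, was 0.293 to 0.346 with it, 0.189 to 0.222 in the other mutant pairs and 0.205 to 0.318 in the control pairs. Results without it are given further on.

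Haemoglobin is a tetramer of alpha-like and beta-like chains around haem. In the mouse the beta-like genes and the alpha-like genes lie in clusters on separate chromosomes, and primitive red cells from the yolk sac, which enter the circulation while still nucleated, use the embryonic chains with adult alpha chains beside them, while definitive red cells from the fetal liver use the adult chains. Alas2 encodes the erythroid form of the enzyme that opens haem synthesis, and Slc4a1 encodes band 3, the anion exchanger that anchors the red cell membrane to its skeleton. Heart tissue taken at midgestation can hold blood in its lumen, and red cell RNA then enters the sample.

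In GENCODE, on genome build GRCm38, the beta-like genes lie on the minus strand of chromosome 7, with Hbb-y at chr7:103851749-103853216, Hbb-bh1 at chr7:103841637-103843164, Hbb-bs at chr7:103826534-103828096 and Hbb-bt at chr7:103812524-103813996. The alpha-like genes lie on the plus strand of chromosome 11, with Hba-x at chr11:32276400-32278116, Hba-a1 at chr11:32283511-32284465 and Hba-a2 at chr11:32296489-32297298. Each globin transcript has 3 exons. Slc4a1 lies at chr11:102348824-102366203 on the minus strand and has 20 exons, and Alas2 lies at chrX:150547375-150570638 on the plus strand and has 11 exons. Alas2 overlaps Apex2 and Mir3620 on the opposite strand, and although the library kit keeps strand, the strand setting of the counting is not given in the sources used here.

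The DNA just upstream of the starts of these genes was also looked up, as a description. Any part of it in their shared movement between pools was not tested. RefSeq promoters (GRCm38.p6) were matched for 7 of 9 genes, Hbb-bh1 and Slc4a1 being the others. Of the 250 bases before each RefSeq start, only bases outside the gene's own GENCODE span are printed, and only where at least 150 of them were left, which gave 4 genes. An embryonic beta-like gene, an adult beta-like gene, an adult alpha-like gene and Alas2 are thus shown. Capitals mark GATAA, the core bound by GATA factors, CACCC, the core bound by Krüppel-like factors, CCAAT, and ATATAA, a form of the TATA box, each on either strand, so that the GATAA core reads TTATC and the CACCC core reads GGGTG where they lie in reverse, and the CCAAT box then reads ATTGG. These letters were chosen after the sequences had been read.
Hbb-y (chr7:103853217-103853457, minus strand): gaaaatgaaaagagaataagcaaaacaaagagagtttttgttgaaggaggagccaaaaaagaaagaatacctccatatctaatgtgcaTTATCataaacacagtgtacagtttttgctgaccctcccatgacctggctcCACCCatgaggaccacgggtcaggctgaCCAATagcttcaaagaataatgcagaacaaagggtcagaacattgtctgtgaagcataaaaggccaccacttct
Hbb-bt (chr7:103813997-103814173, minus strand): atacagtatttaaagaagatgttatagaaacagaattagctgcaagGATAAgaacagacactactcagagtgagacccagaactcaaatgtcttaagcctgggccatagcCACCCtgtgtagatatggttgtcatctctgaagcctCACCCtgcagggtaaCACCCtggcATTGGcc
Hba-a2 (chr11:32296242-32296488, plus strand): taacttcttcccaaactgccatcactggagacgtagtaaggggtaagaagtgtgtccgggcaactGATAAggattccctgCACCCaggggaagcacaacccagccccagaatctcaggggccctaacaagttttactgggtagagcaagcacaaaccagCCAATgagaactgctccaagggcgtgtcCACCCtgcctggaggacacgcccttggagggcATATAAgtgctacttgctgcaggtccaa
Alas2 (chrX:150547167-150547374, plus strand): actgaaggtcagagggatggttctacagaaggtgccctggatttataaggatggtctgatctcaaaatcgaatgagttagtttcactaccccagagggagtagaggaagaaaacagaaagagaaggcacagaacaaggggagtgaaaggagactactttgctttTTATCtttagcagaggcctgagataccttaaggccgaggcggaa

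Over the whole 250 bases, GATAA was present in 7 of 7 promoters, against 22.6% of the 32851 mouse promoters searched in the same way. CACCC was also present in 7 of 7, against 52.0% of all promoters. CCAAT was found in 5 of 7 (33.8% of all promoters) and ATATAA in 5 of 7 (9.1% of all promoters). The GATAA core began 162 bases before the RefSeq start in Hbb-y, 204 in Hbb-bt, 209 in Hbb-bs, 182 in Hba-a1, 185 in Hba-a2, 107 in Hba-x and 86 in Alas2. CCAAT was absent from these windows in Hba-x and Alas2, and ATATAA in Hbb-y and Alas2. Aligned end to end, the 250-base windows of Hba-a1 and Hba-a2 were identical in 97.6% of aligned columns and those of Hbb-bs and Hbb-bt in 70.9%, while the embryonic and adult windows were identical in 53.2% (Hbb-y and Hbb-bs) and 52.8% (Hba-x and Hba-a1). Part of each window lay inside the gene's own GENCODE span. This part was 200 bases in Hba-x, 168 in Hbb-bs, 161 in Hba-a1, 73 in Hbb-bt and 42 in Alas2. It was 9 bases in Hbb-y and 3 in Hba-a2. Since the letters were chosen from these same sequences, the shares over all promoters are no test. These are matches of letters and describe no binding.

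The embryonic beta-like gene Hbb-y was the most abundant of the 9, in CPM as well as per kilobase. Its level was 692, 1326, 1227 and 1170.2 CPM in control pools 1 to 4 and 1753, 2363, 1178 and 587 CPM in mutant pools 1 to 4. The highest and the lowest values both came from mutant pools, and the groups overlapped. The control mean was 1104 ± 282 CPM and the mutant mean 1470.0 ± 762 CPM (SD, n = 4 each). On the log2(CPM + 0.5) scale, on which all fold changes here are given, the difference of mutant minus control was 0.28 (SE 0.35, 95% confidence interval -0.47 to 1.03), with limma adjusted p = 0.751 (Benjamini-Hochberg over 14608 genes) and exact permutation p = 0.60. Fewer cells of a type and less RNA per cell cannot be told apart in RNA from whole tissue.

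Hbb-bh1, the other embryonic beta-like gene, had 214, 361, 271 and 329 CPM in the control pools and 699, 344, 321 and 189.5 CPM in the mutant pools. Mutant pool 1 stood above all other libraries, whereas for Hbb-y mutant pool 2 was the highest. The difference was 0.27 (SE 0.30, exact permutation p = 0.629). Hba-x, the embryonic alpha-like gene, had 395, 887, 724 and 660.0 CPM in the control pools and 1085, 971, 671 and 345 CPM in the mutant pools. Its difference of 0.14 (SE 0.32, exact permutation p = 0.743) was smaller than its standard error.

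Among the adult alpha-like genes, Hba-a1 had 309, 723, 642 and 516 CPM in the control pools and 711, 1199, 565 and 255 CPM in the mutant pools. Hba-a2 followed the same order in 4 mutant pools, with 239, 436, 177 and 75.7 CPM, after 115, 224, 199.7 and 154 CPM in the control pools. Both had their highest value in mutant pool 2 and their lowest in mutant pool 4. The differences were 0.18 (SE 0.38, exact permutation p = 0.80) for Hba-a1 and 0.20 (SE 0.40, exact permutation p = 0.743) for Hba-a2.

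The adult beta-like genes were the least abundant globins. Hbb-bt had 47.7, 89.8, 94.6 and 79.2 CPM in the control pools and 93.3, 190.3, 81.3 and 38.4 CPM in the mutant pools, a difference of 0.20 (SE 0.37, exact permutation p = 0.80). Hbb-bs had 10.3, 45.8, 32.4 and 24.0 CPM in the control pools and 25.8, 95.0, 28.8 and 7.96 CPM in the mutant pools, a difference of 0.16 (SE 0.60, exact permutation p = 0.914). Hbb-bs varied most of the 9, its highest library being 11.9 times its lowest, and its lowest library still held 209 reads. The split within each adult pair is uncertain, because reads were 60 bases long and 65.2% of the 60-base windows of the Hbb-bs transcript and 57.6% of those of Hbb-bt occur in the other gene, as do 65.5% for Hba-a1 and 84.6% for Hba-a2. None of the windows of Hbb-y, Hbb-bh1, Hba-x, Alas2 or Slc4a1 (0%) occurred in the transcript of another gene.

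The erythroid genes that encode no globin followed the same course. Alas2 had 16.3, 23.5, 19.7 and 23.7 CPM in the control pools and 38.8, 41.4, 23.0 and 10.7 CPM in the mutant pools, a difference of 0.28 (SE 0.33, exact permutation p = 0.60). Slc4a1 had 35.3, 66.1, 63.0 and 55.1 CPM in the control pools and 78.7, 112, 57.5 and 30.9 CPM in the mutant pools, a difference of 0.24 (SE 0.32, exact permutation p = 0.629). In both genes mutant pools 1 and 2 were higher than every control pool and mutant pool 4 lower than every control pool.

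**Figure D1:**
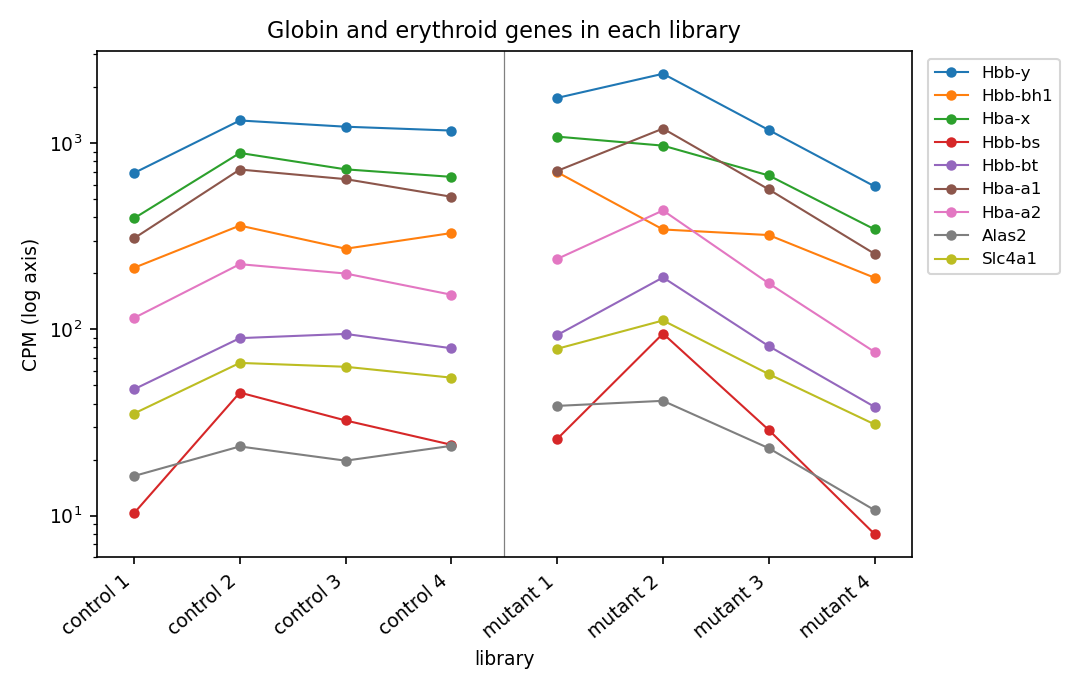
CPM of the 9 genes (log axis) in each of the 8 libraries, control pools on the left and mutant pools on the right; a point is 1 library, and lines join the points of a gene within a genotype and imply no order. Hbb-y runs highest, from 587 to 2363 CPM, and the lowest value of all 9 genes is in mutant pool 4.

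In the fit over the whole table, 0 of the 9 genes passed an adjusted p under 0.05, as did 0 of all 14608 genes (0%), the smallest adjusted p of limma being 0.124 (Benjamini-Hochberg). At an unadjusted p under 0.05, 0 of the 9 genes were higher or lower in the mutant, while 796 of all genes were higher (5.45%) and 967 lower (6.62%). The groups overlapped for 9 of 9 genes, and did not overlap for 1037 of all genes (7.1%). All 9 point estimates were above 0, between 0.14 and 0.28, beside a median of 0.00105 over all genes, but since the 9 genes share the same pools they do not count as 9 separate observations, and every confidence interval included 0. With 4 pools against 4 the exact permutation test has 70 relabellings and cannot give a p below 0.0286.

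The sign of these differences turned with a single pool left out for 8 of 9 genes, the exception being Alas2 (0.048 to 0.68). Without mutant pool 2, 7 of 9 genes had a negative difference, for example -0.43 for Hbb-bs and -0.19 for Hba-a2. Without control pool 1 the difference was negative for 4 genes (-0.25 for Hbb-bs), and without mutant pool 1 for 2 (-0.065 for Hbb-bh1 and -0.073 for Hba-x). Without mutant pool 4, 5 of 9 genes passed an unadjusted p under 0.05: Hbb-y (0.66), Hbb-bh1 (0.56), Hba-a2 (0.65), Alas2 (0.68) and Slc4a1 (0.57), with limma adjusted p between 0.271 and 0.45 (Benjamini-Hochberg), beside 1573 of all 14608 genes past the same unadjusted p.

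**Figure D2:**
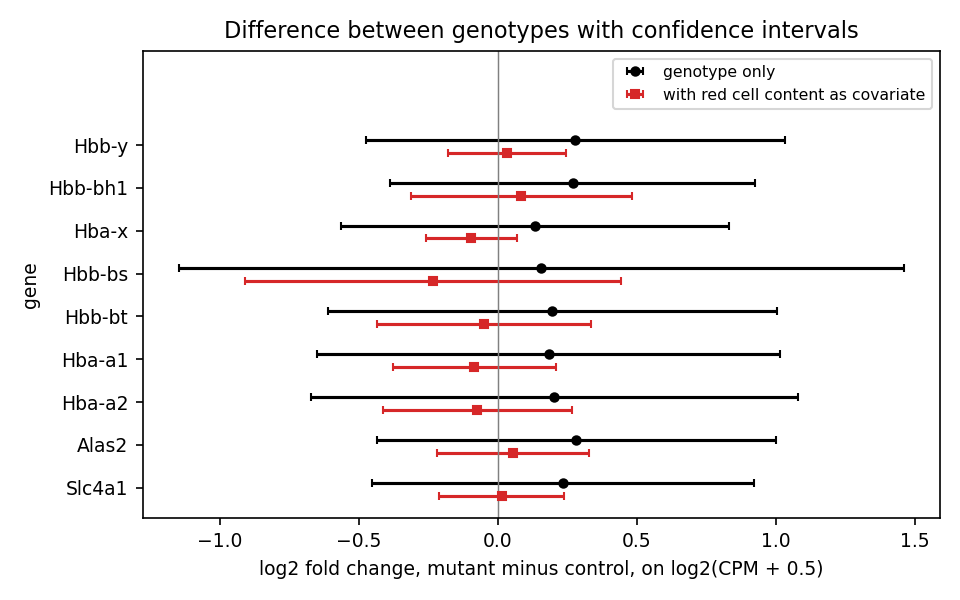
Difference between genotypes (mutant minus control, log2 scale) for each gene, as point estimates with 95% confidence intervals; black circles are the fit on genotype only and red squares the fit with red cell content as a covariate. Every interval spans 0, and the interval of Hbb-y runs from -0.47 to 1.03 on genotype only and from -0.18 to 0.25 with the covariate.

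The spread of the 9 genes over the 8 libraries was wide for this table. Among the 11651 genes whose mean was 5 CPM or more, the median gene had a standard deviation of 0.14 on the log2 scale and a highest library 1.35 times its lowest. All 9 genes were among the 100 with the widest spread, with standard deviations between 0.569 (Hbb-bh1) and 1.11 (Hbb-bs). The highest library was 4.02 times the lowest for Hbb-y, 3.15 times for Hba-x, 3.86 times for Alas2 and 3.61 times for Slc4a1. Among the control pools alone it was 1.91 times for Hbb-y, and among the mutant pools 4.02 times. Whether the mutant pools were more variable than the control pools was not tested.

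Summed over 7 globins, control pools 1 to 4 had 1784, 3656, 3192 and 2933 CPM and mutant pools 1 to 4 had 4606, 5598, 3023 and 1498 CPM. The means were 2891 ± 797 CPM in control and 3681 ± 1801 CPM in mutant (SD, n = 4 each), and the groups overlapped. Control pool 1 and mutant pool 4 were low, mutant pools 1 and 2 were high, and the other 4 libraries lay between 2933 and 3656 CPM. Of the low libraries control pool 1 held 28212669 reads on the listed genes and mutant pool 4 held 26142501, and of the high libraries mutant pool 1 held 21064242 and mutant pool 2 held 27194966. The shallowest library, control pool 2 with 10669420 reads, had an intermediate globin level.

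Per kilobase of transcript, Hbb-y had the highest level, with a mean of 2033 ± 895 CPM per kilobase (SD, n = 8), and exceeded every other gene in 8 of 8 libraries. Hba-x (896 ± 326) and Hba-a1 (879.7 ± 418) came next in CPM per kilobase and were not separated beyond their spread, with Hba-x above Hba-a1 in 6 of 8 libraries. Hbb-bh1 (557 ± 257) and Hba-a2 (366 ± 197) followed, Hbb-bh1 being above Hba-a2 in 7 of 8 libraries and below Hba-a1 in 7 of 8. Hbb-bt (127 ± 65.2) exceeded Hbb-bs (53.8 ± 43.8) in 8 of 8. Slc4a1 (13.7 ± 5.59) and Alas2 (12.1 ± 5.16) were lowest and were not separated beyond their spread.

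Ratios within a library compare the globins with each other, and a factor that scales all globins of a library alike leaves them as they are. The embryonic beta-like genes (Hbb-y and Hbb-bh1) exceeded the adult beta-like genes (Hbb-bs and Hbb-bt) by 15.6, 12.4, 11.8 and 14.5 times in control pools 1 to 4 and by 20.6, 9.49, 13.6 and 16.8 times in mutant pools 1 to 4. The means were 13.6 ± 1.79 in control and 15.1 ± 4.71 in mutant (SD, n = 4 each). The mutant pools spanned the control pools on both sides, with the highest ratio in mutant pool 1 and the lowest in mutant pool 2. The mean difference of 1.51 became -0.31 without mutant pool 1 and 3.39 without mutant pool 2.

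The alpha-like genes behaved alike in this respect. The ratio of Hba-x to the sum of Hba-a1 and Hba-a2 was 0.933, 0.937, 0.861 and 0.985 in the control pools and 1.14, 0.594, 0.905 and 1.04 in the mutant pools (0.929 ± 0.0513 against 0.921 ± 0.239). Among the embryonic beta-like genes, the ratio of Hbb-bh1 to Hbb-y was 0.310, 0.273, 0.221 and 0.282 in the control pools and 0.399, 0.146, 0.273 and 0.323 in the mutant pools. In each of these 3 ratios mutant pool 1 was the highest of all 8 libraries and mutant pool 2 the lowest, although both pools had high globin totals.

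The balance of chains varied less. The sum of beta-like over the sum of alpha-like CPM was 1.10 ± 0.104 in control and 1.19 ± 0.0594 in mutant, with overlapping groups, and its highest library was 1.27 times its lowest. Hbb-bt made up 74.9% ± 6.65 of the adult beta-like CPM in control and 75.4% ± 6.88 in mutant, and Hba-a2 made up 24.4% ± 1.9 of the adult alpha-like CPM in control and 24.6% ± 1.63 in mutant (SD, n = 4 each). The splits between near-identical adult genes carry the uncertainty in assigning reads named above. No test was run on these ratios.

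**Figure D3:**
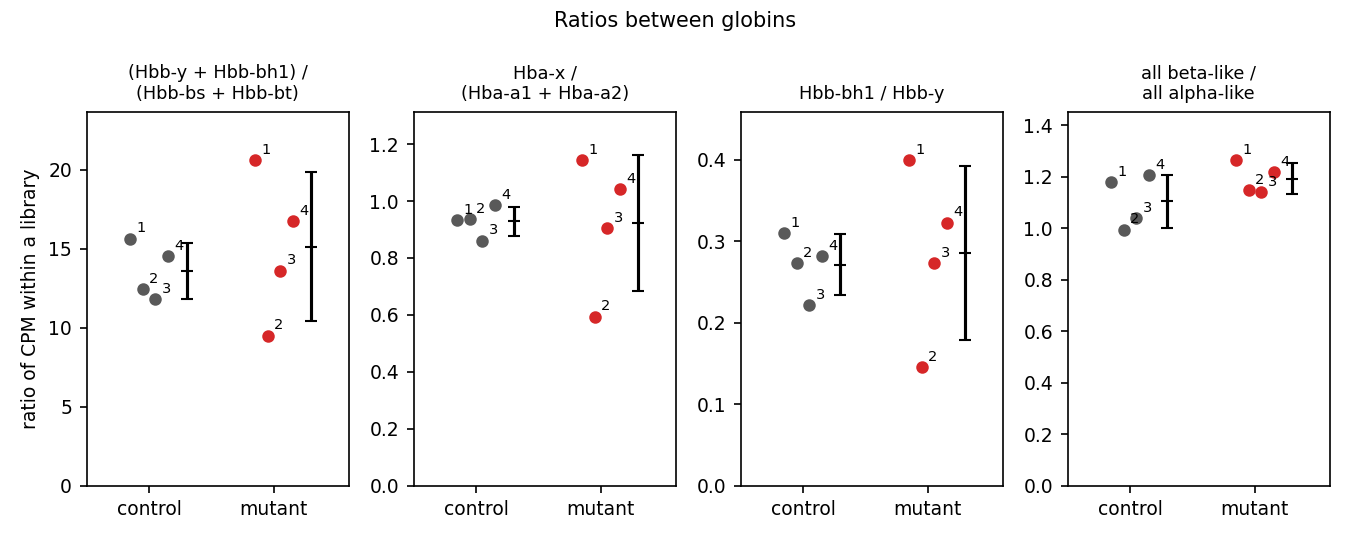
Ratios of CPM between globins within a library, with axes starting at 0; points are libraries labelled with their pool number, and the bar beside each group is its mean with 1 SD. In the embryonic-to-adult ratios and in Hbb-bh1 over Hbb-y, mutant pool 1 (20.6, 1.14 and 0.399) is the highest and mutant pool 2 (9.49, 0.594 and 0.146) the lowest.

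Across the 8 libraries the other 8 genes followed Hbb-y. Slc4a1 was closest, with Pearson r = 0.996 (exact permutation p = 2.48e-05, the smallest that 8 libraries can give) and Spearman rho = 1.0 (exact permutation p = 4.96e-05). Hbb-bh1 was the least close, with r = 0.758 (exact permutation p = 0.0267) and rho = 0.833 (exact permutation p = 0.0154). For Hba-x, Hbb-bs, Hbb-bt, Hba-a1, Hba-a2 and Alas2, r lay between 0.922 and 0.98 and rho between 0.833 and 1.0, with exact permutation p for r of at most 0.00345 and for rho of at most 0.0154. After Benjamini-Hochberg adjustment over 13 relations, those of the 8 genes and of the sums of 5 marker lists (the platelet sum without Vwf, added later, is not among them), the largest exact permutation p for r among the 8 genes was 0.0434 (Hbb-bh1) and for rho 0.025, while for the marker sums, given further on, the smallest was 0.0773 for r and 0.218 for rho. Without mutant pools 2 and 4, the libraries farthest from the median of Hbb-y, r was 0.99 for Slc4a1, 0.882 for Hbb-bh1 and at least 0.75 for the other genes.  The genes share their libraries, the scaling of each library and, in the adult pairs, reads.

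Genes outside the 9 were ranked by their correlation with the mean profile of the 9, after removing the mean of each genotype. Among genes of at least 5 CPM, the 8 most alike over 8 libraries were Ermap (r = 0.986), Car2 (0.985), Sptb (0.983), Kel (0.98), Ap4s1 (0.979), Pam16 (0.974), Cdca3 (0.973) and Thbd (0.972). Outside the 9, 38 genes had r above 0.9, in a set of 11651 genes that includes the 9. How many unrelated genes would reach this r over 8 libraries was not tested. Ermap and Kel encode red cell surface proteins that carry blood group antigens, Car2 a carbonic anhydrase abundant in red cells, and Sptb the beta chain of erythroid spectrin. Ermap varied 3.52 times between its lowest and highest library and Kel 3.94 times, within the range of the 9 genes (3.15 to 11.9 times). Car2 varied 2.46 times and Sptb 1.51 times, less than any of the 9. Ap4s1 varied 1.2 times, Pam16 1.38 times, Cdca3 1.14 times and Thbd 1.46 times. Thbd was the only one of the 8 past an unadjusted p under 0.05, with 27.0 ± 0.957 CPM in control and 33.9 ± 3.36 CPM in mutant (difference 0.32, limma adjusted p = 0.242, Benjamini-Hochberg), without overlap. Kel had 3.89, 6.73, 7.02 and 6.78 CPM in the control pools and 9.94, 14.9, 6.86 and 3.77 CPM in the mutant pools, with control pool 1 and mutant pool 4 low as for the globins.

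Other red cell genes were taken from lists of textbook genes, described by counts beside the same counts over all genes. Of 19 membrane and skeleton genes with values, 0 passed an unadjusted p under 0.05 in either direction, the median difference was 0.105, and among the 18 other than Slc4a1 the median r with the profile of the 9 was 0.842. Gypc, a glycophorin, had a difference of 0.17 (limma adjusted p = 0.426, Benjamini-Hochberg) and Aqp1, a water channel also made by endothelium, 0.34 (limma adjusted p = 0.421, Benjamini-Hochberg). Slc2a1, a glucose transporter that many tissues use, was the most abundant of this list at 730.2 CPM and had r = -0.123 with the profile.

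Of 12 haem synthesis genes 0 passed in either direction, with a median difference of 0.00494 and a median r of 0.498 among the 11 other than Alas2. The housekeeping form of the opening enzyme, Alas1, had 58.4 ± 4.68 CPM in control and 55.3 ± 3.11 CPM in mutant (SD, n = 4 each), and r = 0.23.

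Of 17 erythroid transcription factor genes, 1 was higher and 0 lower at an unadjusted p under 0.05, with a median difference of 0.0405 and a median r of 0.311. The gene that was higher was Lmo2, a bridging protein of the GATA1 and TAL1 complex that endothelium also makes, at 19.1 ± 1.58 CPM in control and 22.8 ± 2.83 CPM in mutant (difference 0.25, limma adjusted p = 0.389, Benjamini-Hochberg). Defining factors of the lineage were present at low levels, Gata1 with 2.46 ± 0.902 CPM in control and 2.86 ± 1.80 CPM in mutant (difference 0.099) and Klf1 with 4.70 ± 1.22 CPM in control and 4.38 ± 1.13 CPM in mutant (difference -0.091; SD, n = 4 each), with r of 0.732 and 0.744.

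Of 16 iron genes, 1 was higher and 1 lower, with a median difference of -0.062 and a median r of 0.336. Abcg2, a porphyrin exporter, had 57.1 ± 2.85 CPM in control and 65.6 ± 8.47 CPM in mutant, and Steap3, a ferrireductase of the endosome, had 14.3 ± 2.23 and 10.6 ± 1.79 CPM (differences 0.19 and -0.41, limma adjusted p = 0.412 and 0.315, Benjamini-Hochberg). Of 20 genes of red cell enzymes and maturation, 1 was higher and 1 lower, with a median difference of 0.0397 and a median r of 0.637. Nxpe2 was higher at the very low level of 0.685 ± 0.0839 CPM in control and 1.36 ± 0.234 CPM in mutant, and Mgst3 was lower (differences 0.64 and -0.26, limma adjusted p = 0.27 and 0.406, Benjamini-Hochberg). In none of these 5 lists did a gene pass an adjusted p under 0.05 in limma. The shares at an unadjusted p are near or below those of all genes (5.45% higher and 6.62% lower).

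**Figure D4:**
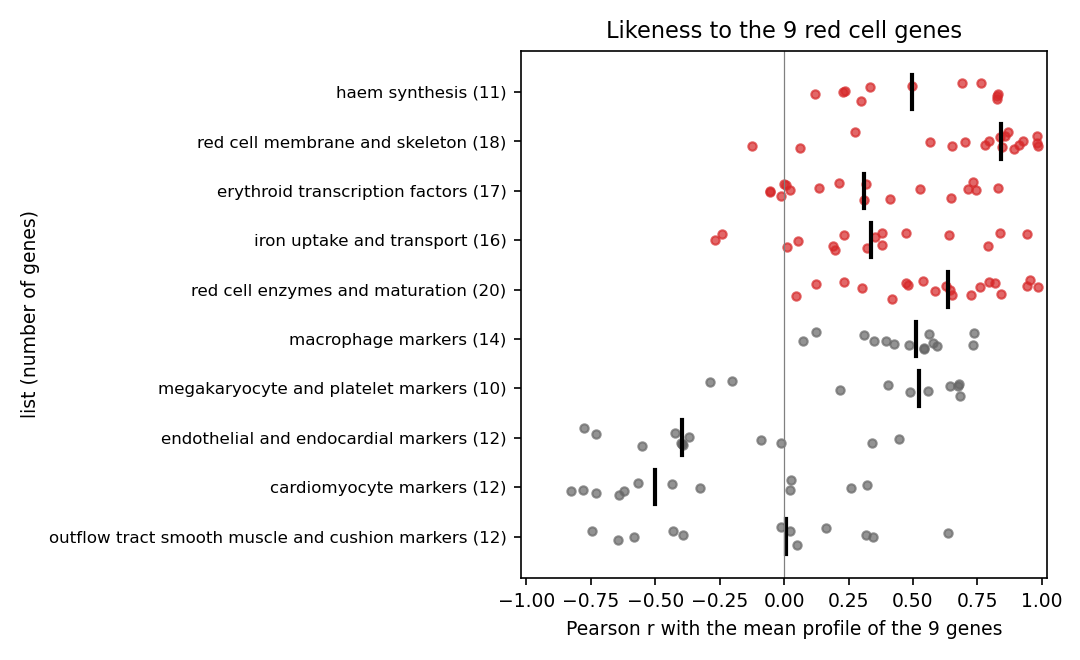
Pearson r of each gene with the mean profile of the 9 genes over 8 libraries, after removing genotype means, by list; a point is a gene, red for red cell lists and grey for other cell types, and the black bar is the median of the list. Among red cell lists the median is 0.842 for membrane and skeleton, 0.637 for enzymes, 0.498 for haem, 0.336 for iron and 0.311 for transcription factors. Among other lists it is 0.523 for platelet, 0.513 for macrophage, 0.0054 for smooth muscle and cushion, -0.395 for endothelial and -0.5 for cardiomyocyte genes. The medians of red cell lists and of other lists thus overlap.

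With the mean deviation of 65 genes from the lists of membrane, transcription factor, haem and enzyme genes as a covariate, the difference between genotypes was 0.033 (SE 0.0968) for Hbb-y and 0.014 (SE 0.102) for Slc4a1. It was negative for 5 of 9 genes, for example -0.095 (SE 0.0742) for Hba-x, and the smallest unadjusted p of limma was 0.225. Many of the 65 genes are also used by other cells of the heart, so this covariate is an incomplete measure of blood.

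The tissue markers were present in all libraries, Acta2 of smooth muscle at 1548 ± 151 CPM in control and 1524 ± 199 CPM in mutant and Myh7 of cardiomyocytes at 10362 ± 634 and 7915 ± 650 CPM. Of 12 cardiomyocyte genes 11 were lower in the mutant at an unadjusted p under 0.05 (9 without overlap; 11 also without mutant pool 2), beside 6.62% lower and 7.1% without overlap over all genes, and the list summed to 26787 ± 1695 CPM in control and 20953 ± 1629 CPM in mutant. By library these sums were 28131, 27705, 26964 and 24350.1 CPM in the control pools and 21205, 18948, 20746 and 22912 CPM in the mutant pools. The correlation of Hbb-y with this sum over 8 libraries was r = -0.523 (exact permutation p = 0.191) and rho = -0.429 (exact permutation p = 0.299), and within genotypes it was r = -0.377 in the 4 control pools and r = -0.897 in the 4 mutant pools. The part of cardiomyocyte content in the globin levels was not tested.

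Other cells carried in blood were looked at in the same way. Of 10 megakaryocyte and platelet genes with values, 0 were higher and 7 lower in the mutant at an unadjusted p under 0.05, 3 of them without overlap, and 0 passed an adjusted p in limma. Over all genes 6.62% were lower and 7.1% did not overlap. Their median difference was -0.53, beside 0.197 for the 7 globins and 0.00105 for all genes. Gp5, a platelet surface glycoprotein, had 2.09, 4.17, 1.65 and 2.39 CPM in the control pools and 1.45, 1.10, 1.30 and 0.914 CPM in the mutant pools, and Vwf, the most abundant of the list and also an endothelial gene, had 62.7 ± 12.3 and 59.9 ± 5.66 CPM. The list summed to 109, 129.5, 93.3 and 87.6 CPM in the control pools and 96.2, 78.9, 93.8 and 79.5 CPM in the mutant pools, highest in control pool 2. Without control pool 2, 4 of the 10 genes were lower, and without mutant pool 2, 6. Hbb-y had r = -0.0734 (exact permutation p = 0.867) and rho = 0.0238 (exact permutation p = 0.977) with this sum, of which Vwf made up 63.8%. Within genotypes the correlation with this sum was r = -0.032 in control and r = 0.19 in mutant. Without Vwf, a choice made after seeing the values, the sum of the other 9 genes was 33.4, 60.6, 35.2 and 39.6 CPM in the control pools and 32.0, 26.8, 29.7 and 20.4 CPM in the mutant pools. Hbb-y had r = 0.246 (exact permutation p = 0.57) and rho = 0.0952 (exact permutation p = 0.84) with that sum, r = 0.619 within control, r = 0.728 within mutant and r = 0.135 without mutant pools 2 and 4. With genotype means removed, the median r of the single platelet genes with the profile of the 9 genes was 0.523, and that of the macrophage genes 0.513.

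Of 14 macrophage genes 0 were higher and 1 lower, Cd68 with 4.68 ± 0.888 CPM in control and 3.35 ± 0.333 CPM in mutant, without overlap. Beside this and the counts that follow, 5.45% of all genes were higher, 6.62% lower and 7.1% without overlap. The macrophage sum was 78.5, 102, 94.6 and 94.5 CPM in the control pools and 81.6, 113, 90.0 and 82.0 CPM in the mutant pools, with Csf1r the most abundant gene at 19.1 CPM. Hbb-y had r = 0.699 (exact permutation p = 0.0535) and rho = 0.571 (exact permutation p = 0.151) with it, r = 0.336 without mutant pools 2 and 4, r = 0.985 within the 4 control pools and r = 0.656 within the 4 mutant pools. Of 12 endothelial and endocardial genes 0 were higher and 3 lower (Emcn, Npr3 and Plvap), 1 without control pool 1 and 1 without mutant pool 2. The endothelial sum was 1242 ± 98.5 CPM in control and 1178 ± 48.2 CPM in mutant, and Cdh5 was the most abundant gene. Hbb-y had r = -0.644 (exact permutation p = 0.0897) and rho = -0.238 (exact permutation p = 0.582) with it, r = -0.678 within control and r = -0.876 within mutant. Of 12 genes in the smooth muscle and cushion list 1 was higher (Isl1) and 1 lower (Myocd), both without overlap. Isl1 is a progenitor factor rather than a marker of smooth muscle or cushion. Hbb-y had r = -0.202 (exact permutation p = 0.636) and rho = -0.143 (exact permutation p = 0.752) with the sum of this list, r = -0.112 within control and r = -0.527 within mutant. Without mutant pools 2 and 4, r was -0.159 with the platelet sum, -0.687 with the endothelial sum, -0.55 with the cardiomyocyte sum and -0.19 with the smooth muscle and cushion sum. In none of these 5 lists did a gene pass an adjusted p under 0.05 in limma.

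**Figure D5:**
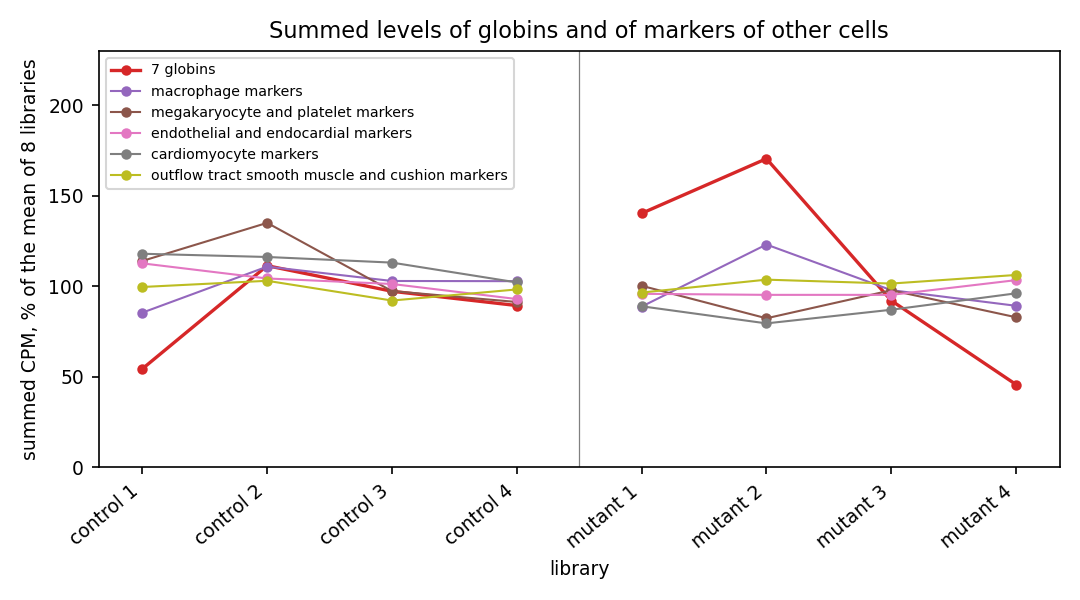
Summed CPM of 7 globins (red) and of 5 marker lists of other cells in each library, as a percent of the mean of the 8 libraries, on an axis from 0; a point is 1 library and lines imply no order. The globin sum is lowest in mutant pool 4 and highest in mutant pool 2. Vwf made up 63.8% of the platelet sum.

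The genes that carry the alleles were read as a check of the labels. Gata6 had 236.5, 279, 271 and 261 CPM in the control pools and 213, 284, 276 and 224 CPM in the mutant pools (difference -0.079, 95% confidence interval -0.29 to 0.14, exact permutation p = 0.543). Mib1 had 122 ± 15.6 CPM in control and 128 ± 6.62 CPM in mutant (SD, n = 4 each; difference 0.073, exact permutation p = 0.486). Neither level separated the groups. Counts per gene add the transcripts of both alleles, and the Mib1 allele is a missense one. These counts therefore do not decide on the mutant label, which was taken from the sample labels.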

How the data were processed

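RNA-seq of OFT was measured in 4 control and 4 Mib1V943F/+ Gata6STOP/+ pools, with 60-base single-end reads from a kit that keeps strand. The authors trimmed adapters with cutadapt, aligned and quantified with RSEM on GRCm38 with Ensembl genes, retained a gene when 3 or more samples had 1 CPM, and applied TMM factors from edgeR. The deposited values are TMM-normalized CPM per gene. Nearly identical genes share reads in such counting, and TMM scaling sets levels relative to the bulk of genes. All 14608 genes in the table reached 1 CPM in at least 4 libraries, and 13 had no symbol.

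The members and gene lists were chosen with earlier results of these data known. Genes named beside the members are, by rule, those of each list with the smallest unadjusted p or the highest CPM and the 8 most like the members. Gata1, Klf1 and Npr3 were chosen after their values were seen. The difference between genotypes was fitted for all genes on log2(CPM + 0.5) with limma 3.58.1 in R 4.3.3 (lmFit, eBayes with trend), two-sided, with Benjamini-Hochberg adjustment, and tested on simulated data. No filter was added. Exact permutation tests (two-sided, 70 relabellings for differences) and correlations used Python 3.11.15 with scipy 1.17.1. Transcript lengths and spans came from GENCODE and promoters from RefSeq.

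CPM values were whole multiples of a step in each library (100% within 0.01 of a read), which gave 10669420 to 30469165 reads on listed genes, or 0.0325 to 0.0948 CPM per read. Replicate pools differed by more than sampling noise (chi-square per gene from 6.67 to 33.7), so none was merged. Other pseudocounts, a filter, other scalings, a replicate block, a covariate for red cell content and leaving out each pool were tried as alternatives.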

Additional observations from a re-analysis of the deposited data

Results flagged for a closer look

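In 122 sets of 4 values tested (a gene or a ratio in the pools of a genotype), 8 had a pool standing far from the other pools of its genotype, by a gap above the critical value of Dixon's test, and chance gives such a gap in about 1 in 20 groups. None was in the 9 globin and erythroid genes or in their ratios. In control, Ermap at 6.81 CPM and Kel at 3.89 CPM were low in pool 1, the control pool with the lowest globins, while Ppox at 48.1 CPM was high in pool 3 and Epb41 at 132 CPM was high in pool 2. In mutant, Tmem14c at 80.9 CPM and Isl1 at 59.2 CPM were high in pool 1, and Abcg2 at 78.3 CPM and Csf1r at 26.0 CPM were high in pool 2, both being pools with high globins. The part of blood content in these values was not tested.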

How the results depend on the processing

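Over 8 other settings, 67 of 72 differences of the 9 genes kept their sign and stayed above an unadjusted p of 0.05. Those that did not were under red cell content as a covariate, where the difference was -0.095 for Hba-x, -0.23 for Hbb-bs, -0.050 for Hbb-bt, -0.084 for Hba-a1 and -0.073 for Hba-a2. Over 8 left-out pools, 54 of 72 did so. The differences ran from -0.0072 to 0.66 for Hbb-y, -0.065 to 0.56 for Hbb-bh1, -0.096 to 0.48 for Hba-x, -0.43 to 0.73 for Hbb-bs, -0.18 to 0.58 for Hbb-bt, -0.16 to 0.59 for Hba-a1, -0.19 to 0.65 for Hba-a2, 0.048 to 0.68 for Alas2 and -0.038 to 0.57 for Slc4a1. The number of the 9 genes past an unadjusted p of 0.05 ran from 0 to 5, the 5 being without mutant pool 4, where 1573 of 14608 genes passed. The cause was not tested. Differences in globin ratios turned sign for 5 of 6 ratios with a pool left out. They ran from -0.31 to 3.39 for embryonic over adult beta-like, -0.081 to 0.10 for alpha-like, -0.024 to 0.060 for Hbb-bh1 over Hbb-y, -2.4 to 3.41 percentage points for Hbb-bt and -0.41 to 1.2 for Hba-a2, and stayed positive (0.052 to 0.12) for beta-like over alpha-like. With geometric means Hbb-bh1 over Hbb-y turned (-0.0017).

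The number of all genes past an adjusted p of 0.05 in limma was 0 in each of these settings. At an unadjusted p it was 1763, between 1304 and 1902 in the other settings and between 1121 (without control pool 2) and 2163 (without control pool 4) with a pool left out. The number of platelet genes lower in the mutant was 7, and 4 to 7 with a pool left out. It was 1 where a mean of 5 CPM or more was required, which left 3 of the 10. With the replicate block it was 6, and with red cell content as a covariate 8. The number of endothelial genes lower was 3, with red cell content as a covariate 2, and 1 to 4 with a pool left out. These counts, and those of cardiomyocyte genes, were chosen after seeing the data.

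Pools with the same number did not deviate together (correlations 0.0349, -0.185, 0.0268 and -0.0454), so the numbers were not used as pairs. With the replicate block, the difference of Hbb-y was 0.28 with limma adjusted p = 0.758 (Benjamini-Hochberg), and 0 of the 9 genes passed. The 3 planned count models on reads recovered from the CPM were left out. The lowest value of the 9 genes rested on 209 reads.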
